A study of Homo sapiens with 12 samples.

Results

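The monoribosomal (mono) and free fractions of wild type (WT) MCF10A cells were compared here, that is, RNA that sedimented with a single ribosome against RNA that sedimented with none. MCF10A is a non-tumorigenic human mammary epithelial line, and WT cells are the unedited cells of a study that also used CBFB_KO cells, in which CRISPR-Cas9 removed the transcription factor subunit CBFB. The comparison uses the 2 WT free and the 2 WT mono libraries, chosen by their labels, which are 4 of the 12 libraries of the series. The other 8 are the 2 WT polyribosomal (poly) libraries, which serve below as a second reference for mono, and 6 libraries of the same fractions of CBFB_KO cells. In every group, equal numbers of cells received 100 µg/ml cycloheximide, which holds ribosomes on the mRNA, for 30 min, and the cleared lysate was spun for 2 h on a gradient of 10 to 50% sucrose. Which gradient fractions were pooled as free or mono is not given in the sources used here, and the labels do not say whether replicates 1 and 2 came from separate cultures. The p-values therefore measure the spread between replicate libraries of the WT free, mono and poly fractions, which may be technical.

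Translation starts when the small ribosomal subunit, brought to the capped end of an mRNA by initiation factors, finds the start codon and is joined by the large subunit. An mRNA with a single ribosome sediments in the mono fraction, and further ribosomes that load before the first one has finished carry it into the poly fraction. A short coding sequence holds few ribosomes at a time, whereas mRNAs held back before initiation, such as ferritin mRNA when iron is scarce, stay with free RNA together with RNAs that are not translated by cytosolic ribosomes.

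Totals of expected counts, the reads that RSEM assigned to genes, were 62371920 and 62678119 in the free and 59798293 and 51910525 in the mono libraries. All levels are in CPM, a gene's count relative to its library's total after scaling by trimmed mean of M values (TMM), so a level is a share of a fraction's sequenced RNA and not an amount per cell. Mitochondrially encoded genes took 11.1 and 20.8% of the free counts and 4.2 and 8.08% of the mono counts. The free replicates differed most, with an SD of the log2 difference between replicates of 1.80 over all genes tested in free, 1.25 in mono and 0.80 in poly. Of 10 markers of basal mammary epithelium, 8 had a mean of at least 1 TPM, the level per transcript length, and all 10 summed to 8807 to 9382 TPM in free and 22760 to 22980 TPM in mono. Most of both sums was S100A2, at 7095 and 7327 TPM in free and 22385 and 22398 TPM in mono. The other basal markers together were lower in mono than in free. Luminal markers summed to 425 to 549 TPM in free and 169 to 228 TPM in mono, mesenchymal markers to at most 5.45 TPM, immune markers to at most 5.16 TPM and endothelial markers to at most 0.07 TPM. The part of the mitochondrial share and of these marker levels in the results below was not tested, except that the calls were repeated without mitochondrial genes.

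To ask which RNAs carried a single ribosome rather than none, the WT libraries were fitted with edgeR. Of 15737 genes tested, 344 (2.19%) were higher in mono than in free and 67 (0.426%) were lower, 2.61% in either direction, at a Benjamini-Hochberg adjusted p under 0.05. The increases held 38 of 76 nuclear-encoded subunits of oxidative phosphorylation and 27 of 79 cytosolic ribosomal proteins. The decreases held both mitochondrial rRNAs, other noncoding RNAs, both ferritin mRNAs and 5 of 22 AP-1 and immediate early genes. Every one of the 411 called genes had both mono libraries on the same side of both free libraries. Of all 15737 genes tested, both mono libraries lay above both free libraries in 4316 and below both in 3217. Such a separation alone therefore does not set the called genes apart. Called log2 changes began at 1.58 upwards and at -1.88 downwards. Of the called genes, 25 had 0 counts in both free libraries and 8 had 0 in both mono libraries, and their fitted log2 changes are no measure of size.

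The number and balance of these calls depended on the libraries in the fit and on scaling. When either mono library was left out, no gene passed in edgeR, although 1748 and 1340 genes were higher and 1173 and 665 lower at an unadjusted p under 0.05 without mono replicate 1 and 2. Without free replicate 1, 913 genes were higher and 249 lower, and without free replicate 2, 1102 were higher and fewer than 249 lower. All 344 higher and all 67 lower genes kept their sign in each of these fits. In every called gene both mono libraries lay on 1 side of both free libraries, so this was largely fixed in advance and is no further support. The fit took its spread from the poly libraries too, whose replicates differed least. With only the 4 mono and free libraries, edgeR called 0 genes higher and 0 lower, with a smallest adjusted p of 0.0611. Scaling by library totals alone gave 0 higher and 5 lower genes, with 1457 and 1818 at an unadjusted p under 0.05. DESeq2 gave 1146 higher and 578 lower genes, and limma on log2(TPM + 1) gave 315 higher and 861 lower of 10143 genes, so that 83.7% of calls were increases in edgeR with TMM, 66.5% with DESeq2 and 26.8% with limma. The median log2 change of all genes was 0.05 in edgeR with TMM, -0.28 with library totals and -0.46 on the TPM scale, and changes are best read relative to it.

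**Figure D1:**
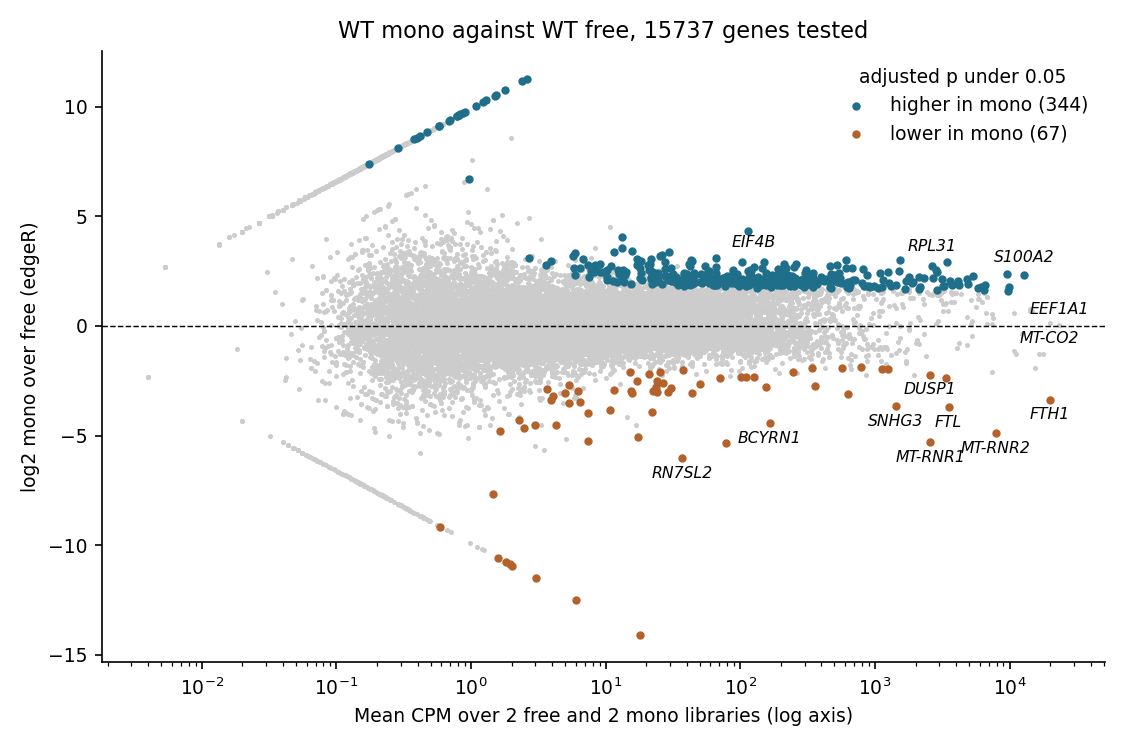
Log2 ratio of mono over free (y axis, edgeR) against the mean CPM of the 2 free and 2 mono WT libraries (x axis, log scale), 1 point for each of 15737 genes tested. Coloured points are the 344 genes higher and the 67 lower in mono at an adjusted p under 0.05; the straight diagonals are genes with 0 counts in both libraries of a fraction, and FTH1, FTL, SNHG3 and the mitochondrial rRNAs lie far below the line at 0.

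Short coding sequences were called higher more often than others, but their share of all calls depended on single libraries and on the fit. Of 303 higher genes with an annotated coding length, 217 (71.6%) encode at most 200 residues, whereas 13.2% of the 12765 tested genes with a coding length do. Without free replicate 2 the share was 31.7% of 926 higher genes, with 240 genes above 400 and up to 800 residues and 198 above 800 and up to 1600 residues among them, and without free replicate 1 it was 55.4% of 769. It was 52.2% with DESeq2, 51.6% without the low-count filter, 51.1% with all 12 libraries and 80.7% with limma. Without free replicate 2, 31.1% of the shortest class (at most 100 residues), 14.7% of the next and 4.34 to 9.39% of the longer classes were called higher. The median length was 142 residues for the higher, 404 for the lower and 461 for all tested genes. Among proteins of at most 100 residues, 67 of 283 genes were higher and 0 lower, with a median log2 change of 1.40. For longer proteins of up to 200 residues, 150 of 1400 were higher and 2 lower, and the median was 0.87. The median fell to 0.08 for the next class of up to 400 residues, where 47 of 3666 genes were higher and 17 lower, and to -0.25 for the class of up to 800 residues, where 15 of 4703 were higher and 14 lower. Beyond this length it did not fall further: the median was 0.07 for the class of up to 1600 residues and -0.15 above 1600 residues, with 11 of 2111 and 13 of 602 genes higher. The medians of the 2 shortest classes stayed above 0 in every alternative run, from 0.70 to 1.58 and from 0.17 to 1.24, whereas those of the classes above 200 residues each changed sign in at least 1 alternative. Among genes with a mean of at least 10 CPM, the medians were 1.49, 0.94, 0.08, -0.43, 0.18 and 0.50 from the shortest to the longest class, so the longest class was not the lowest there.

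**Figure D2:**
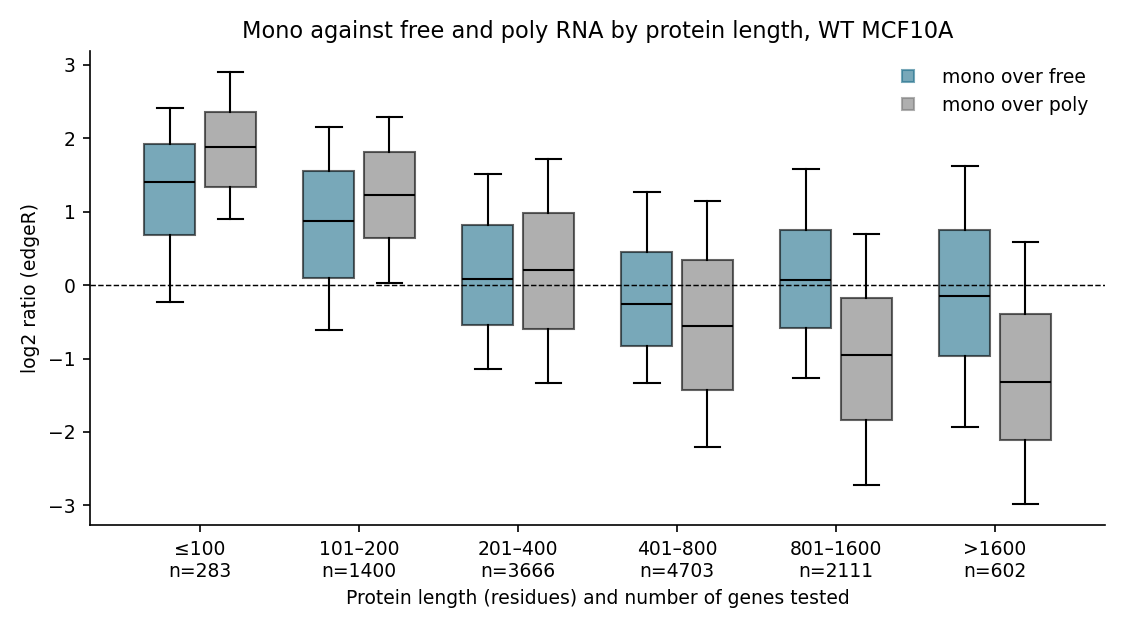
Log2 ratios of mono over free (blue) and mono over poly (grey) in WT cells by protein length in residues; boxes span the quartiles with the median as a line, and whiskers run from the 10th to the 90th percentile of genes. The medians of mono over free lie at 1.40 and 0.87 for the 2 shortest classes and between -0.25 and 0.08 for the longer ones, while those of mono over poly fall in each class, from 1.88 to -1.32.

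Against poly, which shares the mono libraries with the comparison above, the medians fell through all classes, from 1.88 at most 100 residues through 1.23, 0.21, -0.55 and -0.95 to -1.32 above 1600 residues. Mono was higher than poly for 1360 genes (8.64%) and lower for 1275 (8.1%). There were 195 genes (1.24%) higher in mono than in both free and poly, and 150 of the 172 with a coding length encode at most 200 residues. Only 2 of the 344 genes higher in mono than in free were lower in mono than in poly. Short genes outside the named families also moved: 138 of 1518 were higher and 2 lower, with a median of 0.85, against 26 of 56 short cytosolic ribosomal proteins with a median of 1.59.

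Long coding sequences were not absent from the increases. There were 24 higher genes above 800 residues. They made 0.521% of the class of up to 1600 residues and 2.16% of the class above it, beside 2.19% of all genes tested. PRR12 and PPP1R26 stood among the largest changes. PRR12, which encodes a proline-rich nuclear protein of 2036 residues, was at 2.17 and 7.85 CPM in free and 36.6 and 57.7 CPM in mono, a 9.41-fold difference (log2 3.23, SE 0.64, adjusted p = 0.0407). PPP1R26, a regulator of protein phosphatase 1 with 1209 residues, was at 1.57 and 5.78 CPM in free and 31.3 and 29.5 in mono (log2 3.05, adjusted p = 0.0438). In poly, PRR12 was at 30.6 and 25.1 CPM and PPP1R26 at 37.3 and 26.6 CPM, so in both genes free lay below every mono and poly library.

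Cytosolic ribosomal proteins, the building blocks of both ribosomal subunits, were among the families that moved most. All 79 were tested, 27 were higher and 0 lower, and the median log2 change was 1.52 with an SD of 0.28 over the 4 pairings of a mono with a free library. The median ranged from 0.74 to 1.71 over the alternatives, and 76 of 79 members lay above 0. Of the 79, 65 were higher in mono than in poly, beside 8.64% of all genes tested, and 26 of the 27 were among them. Both comparisons share the mono libraries, so this is no separate support for the 27. The count was 0 when either mono library was left out or with library totals, 64 without free replicate 1, and 43 without free replicate 2, where 2 members were also lower. RPL31, a large subunit protein of 125 residues, was at 747 and 651 CPM in free, 3872 and 5327 in mono and 808 and 766 in poly, and mono did not overlap either fraction (log2 over free 2.72, SE 0.36, adjusted p = 0.037). RPS15, a small subunit protein of 152 residues, was at 803 and 863 CPM in free and 4605 and 5146 in mono (5.85-fold, adjusted p = 0.037). RPL7, also of the large subunit, was at 412 and 274 CPM in free and 2095 and 3398 in mono, the largest increase of the list at 8.01-fold (adjusted p = 0.037), although pseudogenes share its sequence. RPS2, the member with the highest mean CPM, was at 14008 and 8591 CPM in free and 17539 and 18342 in mono and did not pass (log2 0.67, SE 0.35, adjusted p = 0.33). The lowest value of the list was -1.15, for RPSA, with an adjusted p of 0.19.

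Ribosomal protein mRNAs begin with a 5′-terminal oligopyrimidine (TOP) tract, a run of C and U at the cap that lets growth signalling switch their translation. A run of CTTTC or of CTTTT, or one of TCTTT or of CTTCC, read on the coding strand with overlaps allowed, lay in the 30 bases around the RefSeq start site of 46 of 63 ribosomal protein genes matched (73.0%), 13 of 16 genes of elongation factors and other TOP mRNAs (81.2%), 15 of 62 oxidative phosphorylation genes (24.2%), 18 of 69 mitochondrial ribosomal protein genes (26.1%), 9 of 16 snoRNA host genes (56.2%), 4 of 26 proteasome genes (15.4%) and 4182 of all 27305 promoters (15.3%). The snoRNA host genes, with the third highest share of these lists, held 0 genes higher in mono and 1 lower of 17 tested. Over all genes tested 2.19% were higher and 0.426% lower, so 17 genes are too few for these counts to set the list apart. These windows, from GRCh38.p14 with the matched letters in capitals, are shown for 3 ribosomal protein genes and EIF4B, all higher in mono. RPL41 and RPS19 were picked after their values were seen. Every window shown holds a match, whereas 73.0% of the ribosomal protein genes matched do, so these are examples and not a sample of the list.
RPL41 (chr12:56116618-56116647, plus strand): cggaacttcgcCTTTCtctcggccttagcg
RPS19 (chr19:41860240-41860269, plus strand): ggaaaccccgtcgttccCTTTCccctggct
RPL31 (chr2:101002274-101002303, plus strand): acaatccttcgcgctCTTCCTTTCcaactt
EIF4B (chr12:53006441-53006470, plus strand): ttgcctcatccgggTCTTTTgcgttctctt
A match is a description of the letters in the window and not evidence of a start at that base.

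Longer mRNAs with such a tract did not all behave like the ribosomal proteins. Of 23 elongation factors and other TOP mRNAs, 4 were higher in mono and 0 lower, with a median log2 change of 0.53 (SD 0.49 over the 4 pairings) that turned to -0.18 on the TPM scale. EIF4B, an initiation factor that aids the helicase eIF4A and the attachment of the small subunit, was at 33.0 and 33.9 CPM in free, 223 and 213 in mono and 115 and 165 in poly. Its free values lay far below all 4 others, a 6.52-fold difference from mono (log2 2.71, SE 0.39, adjusted p = 0.037), and mono and poly did not differ past the threshold (log2 mono over poly 0.64, adjusted p = 0.268). HNRNPA1, a splicing factor and RNA-binding protein, was at 106 and 112 CPM in free, 546 and 632 in mono and 455 and 584 in poly (mono over free 5.39-fold, adjusted p = 0.037). EEF1B2, the exchange factor of the elongation factor eEF1A, was at 576 and 320.3 CPM in free and 2204 and 2939 in mono (5.74-fold, adjusted p = 0.037). EEF1A1, which delivers aminoacyl-tRNA to the ribosome, was at 31863 and 14307 CPM in free and 23266 and 23954 in mono, so the groups overlapped (log2 0.03, SE 0.40, adjusted p = 0.981), and its sign changed with the scaling.

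Nuclear-encoded subunits of the respiratory chain and ATP synthase, which are made by cytosolic ribosomes and imported into mitochondria, showed the highest median of the lists. Of 76 tested, 38 were higher in mono and 0 lower, with a median log2 change of 1.86 (SD 0.15 over the 4 pairings, 0.999 to 2.03 over the alternatives). Of the 56 with at most 200 residues, 36 were higher and 56 lay above 0. The count of 38 became 0 without either one of the mono libraries or with library totals, and 45 and 47 without free replicate 1 and 2. NDUFA13 (chr19:19515736-19529054 in GRCh38), a complex I subunit of 144 residues, was at 119.9 and 151 CPM in free, 1063 and 1102 in mono and 270.2 and 244 in poly (7.98-fold over free, log2 3.0, SE 0.37, adjusted p = 0.031). UQCRQ, a complex III subunit of 82 residues and the member with the highest mean CPM, was at 399.95 and 371 CPM in free and 1857 and 2332 in mono (5.44-fold, adjusted p = 0.037). COX6C, of cytochrome c oxidase, was at 43.3 and 86.5 CPM in free and 369 and 544 in mono (7.04-fold, adjusted p = 0.0374). NDUFS4, an accessory complex I subunit, rose from 4.58 and 8.28 CPM to 33.7 and 63.6 CPM (7.56-fold, adjusted p = 0.0377) and was at 28.0 and 31.3 CPM in poly. In all of them, as in every gene called higher, the lower mono library lay above the higher free library. The lowest value of the list was -0.68 for UQCRC1, a core subunit of complex III (adjusted p = 0.354).

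Mitochondrial ribosomal proteins, which build the ribosome inside mitochondria, held no lower gene. Of 77 listed, 75 were matched and tested, 12 were higher and 0 lower, and the median was 1.15 (SD 0.36 over the 4 pairings). MRPL13, a large subunit protein, was at 23.7 and 12.2 CPM in free and 79.2 and 151 in mono (6.40-fold, adjusted p = 0.0383). MRPL32 was at 10.0 and 10.3 CPM in free and 38.5 and 67.8 in mono (adjusted p = 0.0378). MRPS18C, of the small subunit, was at 8.57 and 14.9 CPM in free and 42.3 and 66.4 in mono (adjusted p = 0.0443). In all 3, as in every gene called higher, the mono libraries lay above the free libraries. MRPL12, the member with the highest mean CPM, was at 618 and 248 CPM in free and 866 and 723 in mono and did not pass (log2 0.88, adjusted p = 0.337).

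Proteasome subunits, which form the barrel and the cap that degrade ubiquitinated proteins, held 4 higher and 0 lower of 30 tested, with a median of 0.88. Against poly, 0 of them were higher in mono and 10 were lower, whereas 65 of 79 cytosolic ribosomal proteins were higher and 0 lower. PSMA2 was at 11.8 and 8.07 CPM in free, 53.3 and 101.1 in mono and 68.4 and 91.3 in poly (7.77-fold over free, adjusted p = 0.037). PSMB1 was at 49.7 and 50.9 CPM in free and 175 and 209.9 in mono (adjusted p = 0.0381). PSMB5, a catalytic subunit, was at 152 and 110.4 CPM in free and 491 and 462 in mono (adjusted p = 0.0418). The free libraries lay below the mono libraries in all 3, as in every gene called higher. PSMB2, with the highest mean CPM, was at 277 and 267 CPM in free and 455 and 563 in mono (log2 0.90, adjusted p = 0.206).

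S100 calcium-binding proteins, small proteins that basal and squamous epithelial cells make in large amounts, held 6 higher and 0 lower of 14, with a median of 1.51 (SD 0.24). S100A2 (chr1:153561108-153567890 in GRCh38) was at 4331 and 4349 CPM in free, 19352 and 23449.8 in mono and 9962 and 7537 in poly, so that both free values were nearly equal and lay below all others (4.93-fold, log2 2.30, SE 0.33, adjusted p = 0.037). S100A6 was at 1789 and 1883 CPM in free and 8085 and 9657 in mono (4.83-fold, adjusted p = 0.037). S100A8 and S100A9 pair as calprotectin. S100A8 was at 8.86 and 19.6 CPM in free and 78.5 and 112 in mono (adjusted p = 0.038), and S100A9 was at 71.8 and 52.0 CPM in free and 260.4 and 318 in mono (adjusted p = 0.0377). Selenoproteins, which insert selenocysteine at a UGA codon, had a median of 1.23 with 1 of 17 higher. That gene was GPX4, a peroxidase that repairs oxidised membrane lipids, at 183 and 140.1 CPM in free and 707 and 679 in mono (4.29-fold, adjusted p = 0.0377). SELENOW, with the highest mean CPM of the list, was at 1466 and 824 CPM in free and 2109.5 and 2049.6 in mono (log2 0.86, adjusted p = 0.252).

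**Figure D3:**
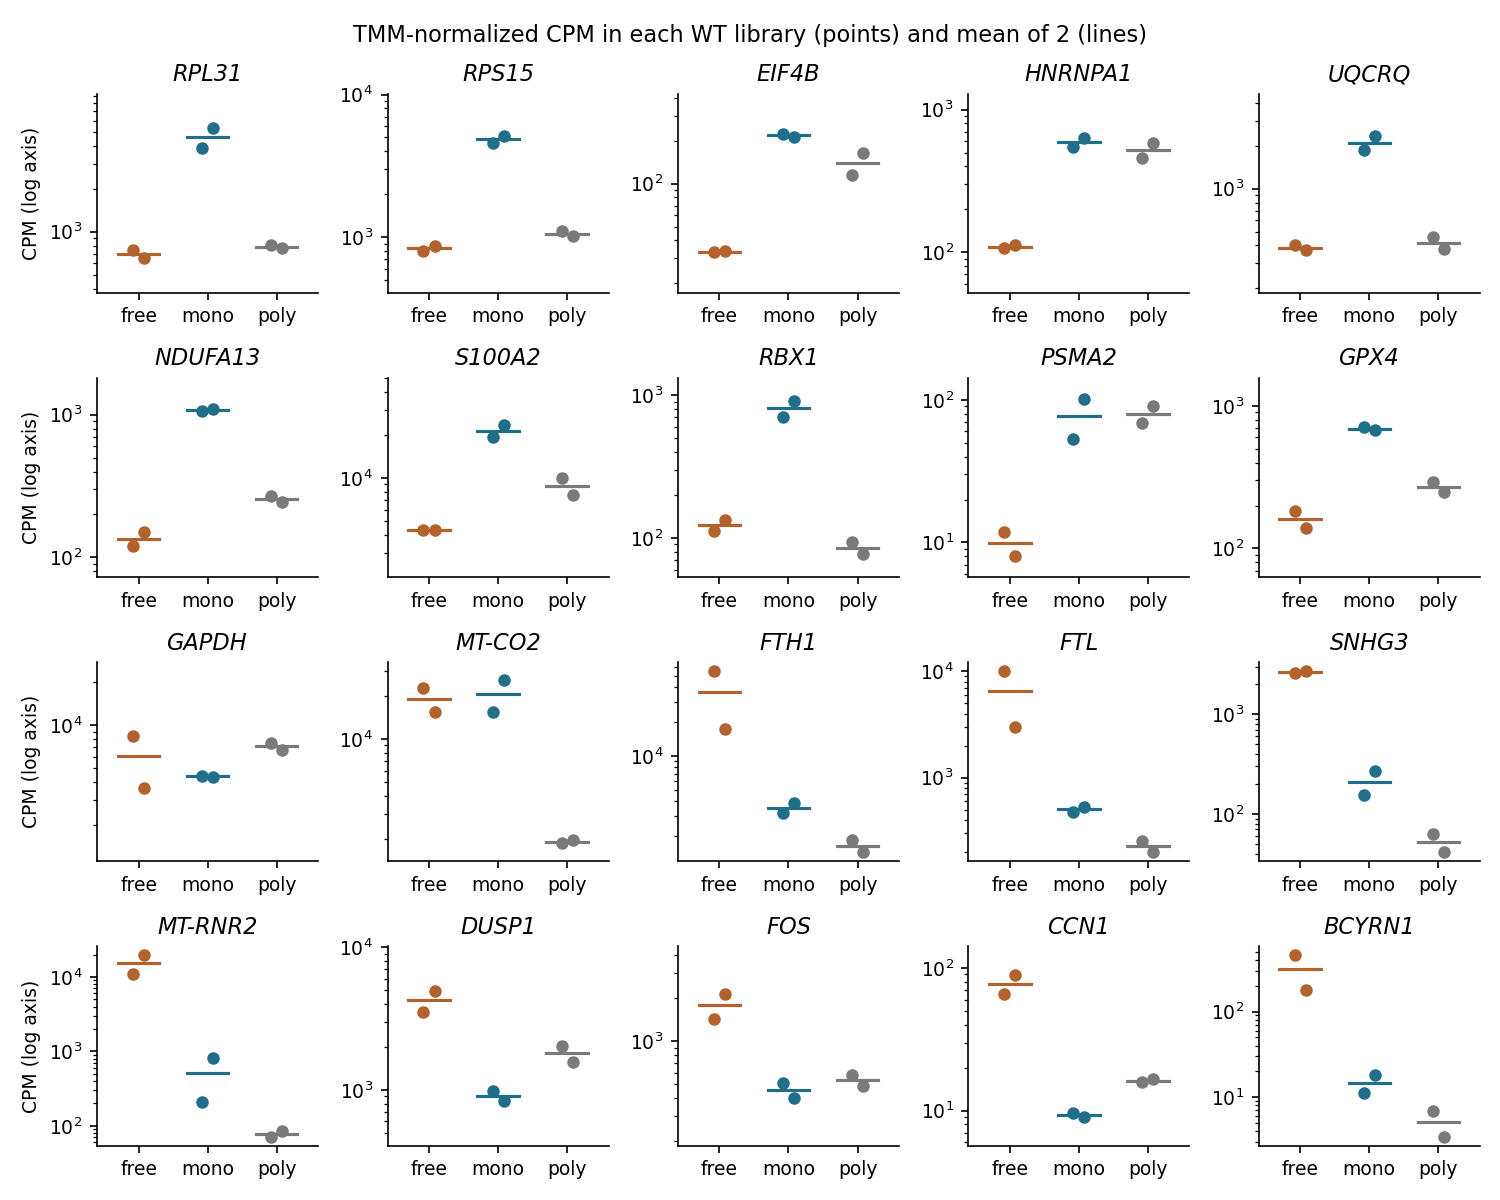
TMM-normalized CPM (log axis, its range differs between panels) of 20 named genes in the 2 libraries (points) and their mean (lines) of the free, mono and poly fractions of WT cells. RPL31, RPS15, UQCRQ, NDUFA13, S100A2, RBX1 and GPX4 are highest in mono, EIF4B, HNRNPA1 and PSMA2 are low only in free, FTH1, FTL, SNHG3, MT-RNR2 and BCYRN1 are highest in free, and the free libraries of GAPDH lie on both sides of mono.

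Of the genes most raised over both neighbouring fractions, RBX1 (chr22:40951347-40973309 in GRCh38), the RING subunit of cullin ubiquitin ligases with 108 residues, was at 111 and 134 CPM in free, 707 and 908 in mono and 93.5 and 77.4 in poly (log2 2.72 over free and 3.24 over poly, adjusted p = 0.037 and 0.0122). HMGN3, a nucleosome-binding protein of 99 residues, was at 4.17 and 5.68 CPM in free, 28.9 and 62.1 in mono and 4.56 and 6.82 in poly (adjusted p = 0.037 over free). ENSG00000184779, for which the tables used gave no name, was at 878 and 718 CPM in free and 4780.4 and 7330.2 in mono (adjusted p = 0.037). WFDC21P, annotated as a pseudogene, was at 5.98 and 5.57 CPM in free and 24.9 and 36.5 in mono (adjusted p = 0.0377). All of these had mono libraries above free, as every gene called higher had, and also above poly without overlap. They were picked for high mono values over both fractions, so neither separation is a further result. The processed pseudogene RPL7P9 was at 3.11 and 2.26 CPM in free and 23.4 and 33.4 in mono (adjusted p = 0.037), and FABP5P7 was at 19.4 and 8.09 CPM in free and 92.4 and 143 in mono (adjusted p = 0.0377). They are near-copies of RPL7 and FABP5, and their counts are uncertain because RSEM divides shared reads between copies. Of 442 processed pseudogenes tested, 14 were higher and 3 lower.

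Other genes among the largest increases at a mean of at least 10 CPM were in no list. DPM1, the catalytic subunit of dolichol-phosphate mannose synthase, was at 1.48 and 1.46 CPM in free and 14.6 and 35.2 in mono (16.9-fold, log2 4.07, SE 0.56, adjusted p = 0.037). EXOSC3, a cap subunit of the RNA exosome, was at 6.26 and 4.22 CPM in free and 51.1 and 56.2 in mono (10.2-fold, adjusted p = 0.037). NOL7, a nucleolar protein, was at 2.17 and 1.86 CPM in free and 15.9 and 26.5 in mono (10.5-fold, adjusted p = 0.037). ATXN1L, a relative of ataxin-1 that binds the repressor CIC, was at 2.51 and 1.72 CPM in free and 11.8 and 37.2 in mono, with mono values far apart (11.6-fold, adjusted p = 0.0377). ENSG00000226958, also without a name here, was at 3.54 and 18.1 CPM in free and 309 and 128 in mono (log2 4.34, SE 0.86, adjusted p = 0.041). In each of these the free libraries were under 20 CPM, so the folds rest on low free levels.

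Among the RNAs lower in mono, 39 of 67 were annotated as protein coding. Both mitochondrial rRNAs were lower: MT-RNR1, of the small mitochondrial subunit, was at 5914 and 4102 CPM in free and 74.9 and 177 in mono (39.7-fold lower, log2 -5.31, SE 0.54, adjusted p = 0.0258). MT-RNR2, of the large mitochondrial subunit, was at 10992 and 19536 CPM in free and 212 and 807 in mono (30.0-fold lower, adjusted p = 0.037). The gene annotated as BCYRN1 was at 455 and 177 CPM in free and 11.1 and 18.2 in mono (21.6-fold lower, adjusted p = 0.037), but its model in the files is 13458 bases long, so these counts cannot be read as the short RNA of that name. RN7SL2, a copy of the RNA of the signal recognition particle, was at 88.2 and 58.0 CPM in free and 0.974 and 1.28 in mono (64.8-fold lower, adjusted p = 0.00888). SNORD3A, a small nucleolar RNA gene whose model in the files is 699 bases long, was at 25.6 and 14.4 CPM in free and 0.678 and 2.11 in mono (adjusted p = 0.0403). The gene annotated as MIR3188 has a model of 902 bases, far longer than a miRNA hairpin, and was at 24.7 and 43.1 CPM in free and 0.763 and 1.28 in mono (adjusted p = 0.031). No library of mono reached any library of free in these RNAs, which the rule for naming the largest decreases required. Of 13 small nucleolar RNA genes tested, 3 were lower and 0 higher, with a median log2 change of -5.17. The kit named in the labels selects poly-A RNA, whereas the study's methods name removal of rRNA and a size selection for its RNAseq. Which step these libraries passed is not settled by these sources, and either bears on the rRNAs and small RNAs measured here.

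Other large decreases lay in genes with no name in the tables used. ENSG00000266422 was at 179.8 and 128 CPM in free and 3.33 and 4.35 in mono (40.1-fold lower, adjusted p = 0.00888). ENSG00000241489, on the X chromosome and annotated as protein coding, was at 46.5 and 36.5 CPM in free and 2.08 and 3.31 in mono (15.4-fold lower, adjusted p = 0.031). ENSG00000258832 was at 40.2 and 31.6 CPM in free, listed at 0 in both mono libraries and at 57.7 and 84.6 CPM in poly. Against 3 counts per library it was at least 499.6-fold lower in mono than in free, a bound that covers counting error only. It does not cover the way RSEM divides shared reads, and whether reads of this gene went to another gene in mono was not tested.

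Of 17 snoRNA host genes tested, whose spliced transcripts carry small nucleolar RNAs in their introns, 1 was lower and 0 higher, with a median of -0.15. SNHG3 (chr1:28505980-28510892 in GRCh38) was at 2573 and 2705 CPM in free, 155 and 267 in mono and 62.8 and 41.3 in poly, so that free, mono and poly did not overlap and fell in that order (12.5-fold lower in mono than in free, log2 -3.64, SE 0.44, adjusted p = 0.031). With library totals alone it remained called lower, with MT-RNR1, RN7SL2, ENSG00000266422 and ENSG00000258832. SNHG29, with the highest mean CPM, was at 7063 and 3472 CPM in free and 7642 and 8441 in mono (log2 0.61, adjusted p = 0.432) and at 935 and 839.6 in poly, and 15 of the 17 were higher in mono than in poly.

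Both ferritin mRNAs were lower in mono. FTH1, the heavy chain that oxidises iron for storage, was at 55521 and 17150.4 CPM in free, 3156 and 3902 in mono and 1829 and 1428 in poly. FTL, the light chain, was at 10054 and 3008 CPM in free, 472 and 536 in mono and 256 and 199 in poly. The free values of each gene were far apart but lay above both mono values, and the decreases were 10.3-fold for FTH1 (log2 -3.36, SE 0.56, adjusted p = 0.037) and 13-fold for FTL (log2 -3.70, SE 0.58, adjusted p = 0.037). The pseudogenes FTH1P7, FTH1P8 and FTH1P10, which share reads with FTH1, were also called lower. Among the 14 tested mRNAs of the polyamine and ferritin list, FTH1 and FTL were the only genes called, and the median was -0.41.

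Iron regulatory proteins hold ferritin mRNA back from initiation by binding an iron-responsive element, a hairpin near its 5′ end with a CAGTGN loop above a bulged C. CAGTGN with a C 6 bases before it, read on the transcript strand, occurred in the first 250 bases of 1081 of 12765 GENCODE 29 transcripts (8.47%), and 11 (0.0862%) could also pair the 5 bases on each side of the loop. Of these 11, FTL and FTH1 were lower in mono and 0 were higher. The other 9 had log2 changes from -2.06 to 8.15, none past the threshold, and 7 of them had a mean under 10 CPM. The search was made after the values of ferritin had been seen. The sequences (GRCh38, loop in capitals, given in the transcript's direction) of both ferritin genes are shown because both carry the loop and both were lower in mono.
FTH1 (chr11:61967575-61967601, minus strand): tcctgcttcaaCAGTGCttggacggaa
FTL (chr19:48965336-48965362, plus strand): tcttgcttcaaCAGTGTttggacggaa

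AP-1 and immediate early genes, which are transcribed within minutes of a growth or stress signal, had a median of -1.38 (SD 0.65 over the 4 pairings, -1.70 to -0.37 over the alternatives, the latter without free replicate 2), with 5 of 22 lower and 0 higher, and 10 and 8 lower without free replicate 1 and 2. DUSP1 (chr5:172768090-172771195 in GRCh38), a phosphatase that switches off MAP kinases, was at 3523 and 4942 CPM in free, 984 and 832 in mono and 2034 and 1564 in poly (4.66-fold lower in mono than in free, log2 -2.22, SE 0.36, adjusted p = 0.037). CCN1, a secreted matricellular protein, was at 65.9 and 89.2 CPM in free and 9.55 and 9.03 in mono (8.35-fold lower, adjusted p = 0.037). FOS, a subunit of AP-1, was at 1446 and 2166 CPM in free and 514 and 398 in mono (3.96-fold lower, adjusted p = 0.0385). MYC, a transcription factor of cell growth, was at 683 and 1111 CPM in free and 244 and 231 in mono (3.78-fold lower, adjusted p = 0.041), and JUND was the other gene called. Against poly, 0 of the 22 were higher in mono and 1 was lower, and the median was -0.09.

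Mitochondrially encoded mRNAs, which are translated by mitochondrial and not by cytosolic ribosomes, had a median of -1.28 with 0 of 13 called in either direction in edgeR with TMM. Without free replicate 1, 7 were called lower, and without free replicate 2, 1 was higher and 1 lower with a median of -0.31. DESeq2 called 5 lower, limma 6, and edgeR without the low-count filter 3. MT-CO2, a subunit of cytochrome c oxidase, was at 22805 and 15329 CPM in free and 15540.4 and 25839 in mono (log2 0.12, SE 0.37, adjusted p = 0.905). MT-CO3, of the same complex, was at 31483 and 18433 CPM in free and 8292 and 12317 in mono (log2 -1.28, adjusted p = 0.111). MT-ND4, of complex I, was at 6414 and 40629 CPM in free and 4399 and 14752 in mono, so the groups overlapped (log2 -1.30, SE 0.80, adjusted p = 0.41). All 13 were higher in mono than in poly, with a median of 3.49.

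**Figure D4:**
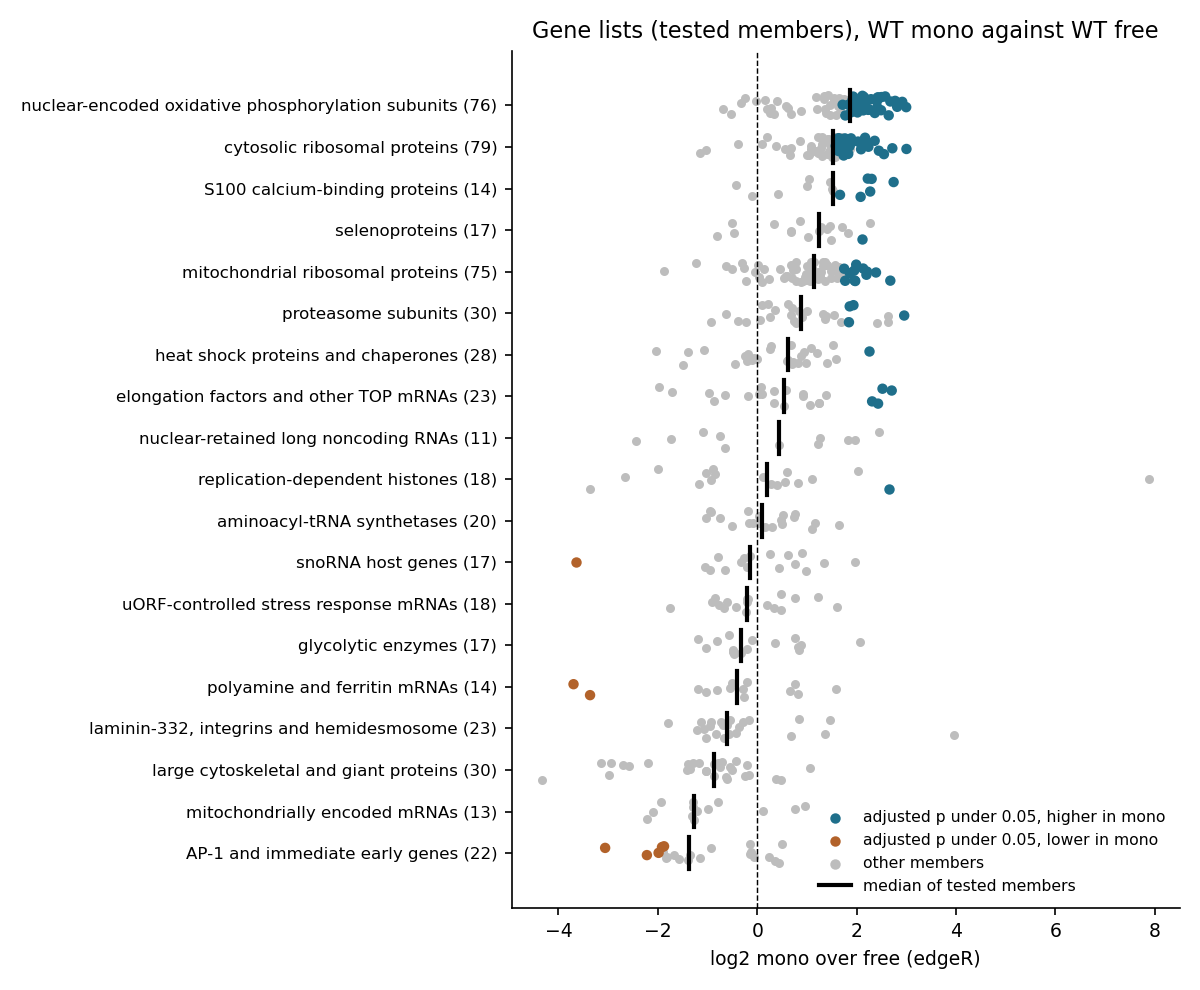
Log2 ratio of mono over free (x axis, edgeR) of the tested members of 19 gene lists (rows, number tested in parentheses), ordered by median (black bars); blue and orange points passed an adjusted p of 0.05 and grey points did not. Oxidative phosphorylation subunits and cytosolic ribosomal proteins lie highest with medians of 1.86 and 1.52, and AP-1 and immediate early genes lie lowest with -1.38, a place that 3 alternatives (limma, without mono replicate 2, without free replicate 2) do not keep.

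In other lists few or no members passed. Heat shock proteins and chaperones held 1 higher gene of 28 and a median of 0.61. It was HSPE1, the small co-chaperonin of mitochondria, at 111 and 168 CPM in free and 558 and 764 in mono (4.74-fold, adjusted p = 0.0377). HSPB1, with the highest mean CPM, was at 611 and 300.5 CPM in free and 1287 and 1343 in mono (adjusted p = 0.0883). Replication-dependent histones, whose mRNAs end in a stem-loop in place of a poly-A tail, held 1 higher gene of 18, with a median of 0.19 whose sign changed in 4 alternatives. The higher gene was H2BC5, at 1.45 and 2.09 CPM in free and 8.22 and 14.1 in mono (log2 2.65, SE 0.53, adjusted p = 0.0418). H2BC12 was at 78.5 and 72.6 CPM in free and 128 and 138 in mono, so mono lay higher (adjusted p = 0.257). HIST2H2AA3 was at 139.9 and 131 CPM in free and 70.4 and 71.8 in mono (adjusted p = 0.191), and H2BC21 was at 59.9 and 210.2 CPM in free and 31.3 and 36.7 in mono (adjusted p = 0.103), so mono lay lower in both.

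No aminoacyl-tRNA synthetase of 20 passed in edgeR, and the median was 0.09. Of these enzymes, which charge tRNAs, QARS1 was at 174 and 209 CPM in free and 352 and 187 in mono (adjusted p = 0.554). FARSA was at 208 and 166 CPM in free and 137 and 85.5 in mono (adjusted p = 0.321), and SARS1 was at 103 and 89.6 CPM in free and 148 and 119.7 in mono (adjusted p = 0.509). Laminin, integrin and hemidesmosome genes, which anchor basal cells, had a median of -0.61 with 0 of 23 called. CD151, a tetraspanin, was at 199 and 138 CPM in free and 176 and 124 in mono (adjusted p = 0.867). The integrin gene ITGB4 was at 78.9 and 141 CPM in free and 169 and 224 in mono (adjusted p = 0.295), and ITGA3 was at 78.3 and 95.6 CPM in free and 144 and 133 in mono (adjusted p = 0.328), both above free without overlap. Large cytoskeletal and giant proteins had a median of -0.87, also with 0 of 30 called, and 3 of 30 lay above 0. SRRM2, a splicing co-activator, was at 352 and 214 CPM in free and 255 and 232 in mono (adjusted p = 0.816). PLEC, the linker plectin, was at 44.1 and 43.6 CPM in free and 32.8 and 24.8 in mono (adjusted p = 0.397), and FLNA, filamin, was at 26.5 and 28.6 CPM in free and 59.2 and 55.2 in mono (adjusted p = 0.175).

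Stress response mRNAs with upstream open reading frames, which lower initiation at the main start codon until a stress relieves it, had a median of -0.21 with 0 of 18 called. ATF4, the transcription factor of the integrated stress response, was at 6595 and 3931 CPM in free, 3275 and 2917 in mono and 696 and 640.4 in poly, and mono lay below free without overlap but did not pass (log2 -0.77, SE 0.36, adjusted p = 0.283). TRIB3 was at 715 and 776 CPM in free and 579.9 and 248 in mono (adjusted p = 0.349). EIF1, which guards start codon choice, was at 749 and 456 CPM in free and 707 and 814 in mono, with overlapping groups (adjusted p = 0.691). Long noncoding RNAs of a list named nucleus-retained had a median of 0.43 with 0 of 11 called. The name is that of the list, and whether its members stay in the nucleus of these cells was not measured here. PVT1 was at 179 and 140.3 CPM in free and 107 and 82.7 in mono (adjusted p = 0.317). OIP5-AS1 was at 62.7 and 51.0 CPM in free and 102 and 169 in mono (adjusted p = 0.157), and CYTOR was at 40.5 and 43.5 CPM in free and 86.3 and 109 in mono (adjusted p = 0.126). For the synthetase, laminin and integrin, giant protein, upstream reading frame and noncoding RNA lists, the number called ranged from 0 to 4 in either direction over the alternatives.

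Glycolytic enzymes had a median of -0.32 with 0 of 17 called in edgeR with TMM. DESeq2 called 1 higher and 2 lower, limma 3 lower, and edgeR 2 higher without free replicate 1, where the median turned to 0.11, and 1 lower without free replicate 2. GAPDH was at 8436 and 3663 CPM in free and 4402 and 4358 in mono, so the free values lay on both sides of the mono values (log2 -0.47, SE 0.42, adjusted p = 0.591). ALDOA, aldolase, was at 2522 and 1154 CPM in free and 1405 and 1075 in mono (adjusted p = 0.516). TPI1, triosephosphate isomerase, was at 1449 and 595 CPM in free and 2022 and 1623 in mono (adjusted p = 0.354). PKM, pyruvate kinase, was at 1219.8 and 1413 CPM in free and 820.3 and 464 in mono (log2 -1.04, SE 0.38, adjusted p = 0.179) and at 2513 and 2412 in poly. Of the 7 genes the study turns on, EIF4B alone passed in edgeR with TMM, and 1 other was lower with DESeq2, 2 with limma and 1 without free replicate 2. RUNX1, the DNA-binding partner of CBFB, was at 17.9 and 35.3 CPM in free and 12.6 and 10.9 in mono (log2 -1.18, SE 0.44, adjusted p = 0.187). CBFB itself was at 6.65 and 15.6 CPM in free and 9.91 and 7.69 in mono (adjusted p = 0.769), with the mono values inside the free ones. HNRNPK, which encodes the RNA-binding protein hnRNPK, was at 73.7 and 68.3 CPM in free and 58.5 and 59.5 in mono (adjusted p = 0.738). The receptor gene NOTCH3 was at 28.96 and 25.6 CPM in free and 21.5 and 15.1 in mono (adjusted p = 0.449).

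The CBFB_KO libraries, which share no library with the WT comparison, gave mono over free ratios of the same genes in a separate edgeR fit of 15007 genes, where 3473 (23.1%) were higher and 4717 (31.4%) lower. Of the 344 genes higher in WT mono, 315 (91.6%) lay above 0 in CBFB_KO, 287 were called higher and 13 lower, and the median log2 change was 2.98. Of the 67 lower in WT mono, 63 were tested, 6 (9.52%) lay above 0, 29 were called lower and 0 higher, and the median was -1.81. Over all genes tested in both, 50.5% lay above 0. The free libraries of CBFB_KO held 71.6 and 87.2% mitochondrially encoded counts, and the difference between the genotypes was not tested here. Of the named genes higher in WT, those with the lowest values in CBFB_KO, picked out after their values were seen, were ATXN1L with a log2 change of -3.07 beside 3.53 in WT, PRR12 with -2.36 beside 3.23, HNRNPA1 with -0.08 beside 2.43 and EIF4B with 0.23 beside 2.71.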

How the data were processed

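RNAseq libraries of sucrose gradient fractions were analysed from the tables the authors deposited, 1 per library with 56632 Ensembl genes. The submitters' processing notes name Trimmomatic, STAR, RSEM and hg19; versions and the annotation release are not given in the sources used here. Expected counts, as deposited, are raw estimates of reads per gene by RSEM. TPM, also deposited, is RSEM's level per transcript length and library.

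Expected counts were rounded and the 6 WT libraries fitted with edgeR 4.0.16 (R 4.3.3) by its quasi-likelihood test, with TMM, filterByExpr and a mean per fraction; n = 2 a fraction. Contrasts were mono minus free and mono minus poly, with Benjamini-Hochberg adjustment over 15737 genes. SE was taken as the size of a log2 change over the square root of its F. CBFB_KO libraries were fitted separately. The common biological coefficient of variation was 0.565. In each library 3 counts correspond to 0.0354 to 0.0801 CPM. Intervals and floors cover counting error only. The replicates differed beyond sampling noise, with a mean chi-square per gene of 957 in free, 268 in mono and 128 in poly, so none was merged. The fits were tested on simulated data.

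Symbols came from a table of gene identifiers (49995 genes), GENCODE 29 (281) and transcript identifiers (434). Gene type and coding length came from GENCODE 29, on GRCh38, so coordinates are of that build and not of the authors'. Start site windows came from RefSeq. Strand use in counting is not given in the sources used here, so overlapping and antisense genes cannot be told apart.

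Members, gene lists and tests were chosen with earlier results of these data known, and several lists overlap in function. Genes named are the 10 largest increases and decreases past the threshold with a mean of at least 10 CPM, the genes the study turns on, up to 4 members of each list (the highest mean CPM and the largest called changes, or, with none called, the 2 next by mean CPM), and 5 genes highest over both free and poly; RPL41, RPS19, JUND, RPSA, UQCRC1 and the ferritin pseudogenes were added after their values were seen. The part of the rule on protein sequences was not used. Alternatives were other scaling (edgeR RLE, library totals), DESeq2 1.42.0, limma 3.58.1 on log2(TPM + 1) of genes with a mean TPM of at least 1, no low-count filter, the 4 mono and free libraries, all 12 libraries, a replicate block, no mitochondrial genes, a log2 change of at least 1, and each library left out. Sequence searches and plots used Python 3.11.15, pandas 2.3.3 and matplotlib 3.10.9. FPKM columns were not used.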

Additional observations from a re-analysis of the deposited data

How the results depend on the processing

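The counts in edgeR with TMM were 344 genes higher in mono than in free, 67 lower and 195 higher than both free and poly. They became 216 higher and 112 higher than both with edgeR RLE factors; 0 higher, 5 lower and 0 higher than both with library totals; 1146, 578 and 531 with DESeq2; 1061, 344 and 438 without the low-count filter; 0 higher and 0 lower with only the 4 mono and free libraries; 903, 233 and 354 with all 12 libraries; and 861 lower and 71 higher than both with limma on log2(TPM + 1). Leaving out each library in turn gave 0 to 1102 higher, 0 to 249 lower and 0 to 505 higher than both, and the 0 counts came from leaving out either mono library. With 1 library left in a fraction, that library is assumed to vary like the others. With the 4 libraries alone 1466 genes were higher and 790 lower at an unadjusted p under 0.05, and the smallest adjusted p was 0.0611. The cause of these shifts was not tested, except that fits on fewer samples have fewer degrees of freedom. Without mitochondrial genes, and with a log2 change of at least 1, the counts stayed within 1.5 times these.

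The correlation of deviations of same-numbered libraries over 15737 genes was -0.04 for free and mono, 0.05 for free and poly and 0.22 for mono and poly, so not every pair deviated together and the number was not taken to pair them. With the replicate block edgeR called 0 genes higher, 0 lower and 0 higher than both, with 2003 higher and 1055 lower at an unadjusted p under 0.05.

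Among named genes that did not pass in edgeR with TMM, the log2 change turned sign in these settings. On the TPM scale it was -0.57 for EEF1A1, -0.69 for MT-CO2, -0.19 for QARS1, -0.096 for SARS1, -0.0092 for H2BC12, -0.079 for SNHG29, -0.51 for EIF1, -0.58 for ITGB4, -0.35 for ITGA3 and -0.41 for FLNA. EEF1A1 was also at -0.075 with RLE factors and with DESeq2, at -0.28 with library totals and at -0.021 with the 4 libraries, and MT-CO2 was at -0.22 with library totals. Leaving out each library in turn gave -0.49 to 0.73 for EEF1A1, -0.28 to 0.45 for MT-CO2, -2.41 to 0.53 for MT-ND4, -0.82 to 0.34 for CBFB, -1.01 to 0.27 for GAPDH, -1.09 to 0.11 for ALDOA, -0.026 to 0.89 for QARS1, -0.036 to 0.75 for EIF1, -0.47 to 0.14 for CD151 and -0.59 to 0.20 for SRRM2. With 2 libraries a fraction, depth limited only genes near the floor of 3 counts, and the spread between libraries set the limit for the rest.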
